A study of Homo sapiens with 9 samples.

Results

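The genes described here are 38 genes of glycolysis and of the cellular response to low oxygen, followed across OVCAR3 cells that carried either a scramble hairpin or 1 of 2 hairpins against GPX3. They were chosen by name: glucose and lactate transporters, the enzymes from hexokinase to lactate dehydrogenase with their regulators, the subunits and hydroxylases of the hypoxia-inducible factors (HIF), and well-known HIF targets. The choice was made with earlier results of these data known, so counts set beside those of all genes only describe the list. All 38 genes were among the 58735 genes of the deposited count table. The low-count filter left 17023 genes for testing, 36 of the listed genes among them, and SLC2A3 and CA9 fell below it.

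OVCAR3 is an established human ovarian carcinoma cell line, and RNA was sequenced from 9 libraries of it after 72 h in culture. The 3 scramble libraries are labelled wild type, and 3 libraries each carried a GPX3 hairpin that the authors numbered 76 or 78, called sh76 and sh78 here. GPX3 encodes glutathione peroxidase 3, a secreted enzyme that reduces peroxides. All groups grew in RPMI medium with 10% serum and 0.01 mg/ml insulin, and the oxygen level is not given in the sources used here. Everything rests on 1 cell line, and nothing in the labels says whether replicates were separate transductions or cultures, so p-values measure the spread between these libraries, which may be technical.

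Glycolysis splits glucose into pyruvate. Phosphofructokinase is its main controlled step, lactate dehydrogenase turns pyruvate into lactate, and monocarboxylate transporters carry lactate across the cell membrane. HIF is a pair of proteins whose alpha subunit is hydroxylated by EGLN enzymes and degraded while oxygen is plentiful. In low oxygen the alpha subunit persists, binds DNA at a short core sequence, and raises transcription of many glycolytic genes, of VEGFA and of genes of mitochondrial turnover. Cancer cells often run these genes at a high level with oxygen present.

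The core that HIF binds is written ACGTG or GCGTG. Both were searched on both strands in the 250 bases before each RefSeq gene start (GRCh38.p14), and 33 listed genes had an entry in that table. ACGTG was found for 13 of the 33, against 18.7% of 27305 promoters, and GCGTG for 13, against 31.9%. Either was found for 22 of the 33, against 43.1%. The windows below belong to genes that differed from scramble in sh78 and show what such a match looks like beside the gene start. Capitals mark the matches on either strand (CACGT and CACGC are the reverse complements), and sequences are given 5′ to 3′ on the gene's strand. A match is a description of letters, not a binding site, and ACGTG also lies within the E-box CACGTG.

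GPI (chr19:34364818-34364847, plus strand): acactgcctgtaACGTGgaaggtgttcgat

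PFKL (chr21:44299877-44299906, plus strand): tgctcagggcccGCGTGacattgcacaggt

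ALDOC (chr17:28576906-28576935, minus strand): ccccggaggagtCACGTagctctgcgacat

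GAPDH (chr12:6535172-6535201, plus strand): ctctgcggggtCACGTGtcgcagaggagcc

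LDHA (chr11:18394478-18394507, plus strand): cgtgggttcccgCACGTccgccggcccccc

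BNIP3 (chr10:131982039-131982068, minus strand): cgCACGCgccgCACGTGccaCACGCacccc

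The ACGTG match nearest the start lay 162, 28, 80, 73 and 133 bases upstream for GPI, ALDOC, GAPDH, LDHA and BNIP3. PFKL had only GCGTG, 164 bases upstream. In BNIP3 a GCGTG match, written CACGC, lay closer to the start than its ACGTG. GPI, which was higher in both hairpin groups, and LDHA, which was lower in sh78, both held ACGTG. SLC2A1 and PFKP held neither motif in this window. SLC16A1 and BNIP3L, also called in sh78, had no entry among the RefSeq promoters and were not searched.

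Libraries held 14652965 to 21327562 counts, with 25630 to 27424 genes detected. GPX3 itself checks the labels. Its level was 54.3, 34.2 and 37.1 FPKM (counts divided by the length of the gene and the size of the library) in scramble, 17.8, 17.2 and 17.4 in sh76, and 11.1, 8.93 and 8.87 in sh78, and the groups did not overlap. It fell by 1.25 on the log2 scale in sh76 (edgeR adjusted p = 0.00264) and fell by 2.12 in sh78 (adjusted p = 0.000125), and was lower in sh78 than in sh76 (log2 difference -0.86, adjusted p = 0.0194), a call lost without any 1 of the sh76 libraries or sh78 replicate 2 or 3. Of 10 ovarian carcinoma markers, 10 had a mean of at least 1 FPKM, as did 1 of 7 fibroblast markers (COL1A1), 0 of 4 endothelial and 0 of 5 immune markers. Over all libraries the immune markers summed to at most 0.482 FPKM, the endothelial markers to at most 1.16 and the fibroblast markers to at most 5.65. In sh76 replicate 2 COL1A2 had 142 counts and COL3A1 had 53. Elsewhere they had 19 to 51 and 0 to 4 counts. The summed carcinoma markers were 2117 to 2377 FPKM in scramble, 1851 to 2128 in sh76 and 1759 to 1892 in sh78, and sh78 lay below scramble without overlap. In sh78 single markers went both ways, but none was called higher than in scramble. EPCAM, KRT8 and KRT18 fell in sh78 (log2 fold changes -0.33, -0.52 and -0.46, edgeR adjusted p = 0.00387, 0.00259 and 0.0105). PAX8, MUC16 and KRT7 had values of 0.09, 0.06 and 0.16 there (edgeR adjusted p = 0.504, 0.918 and 0.565). WT1, CDH1, SOX17 and MSLN had values of -0.42, -0.23, -0.11 and -0.05 (edgeR adjusted p = 0.46, 0.0772, 0.705 and 0.916). PAX8 fell in sh76 (-0.28, edgeR adjusted p = 0.0196) and was higher in sh78 than in sh76 (0.37, adjusted p = 0.00386). Their part in the results below was not tested, and in bulk RNA fewer cells of a type and less RNA per cell cannot be told apart.

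The first question was how the listed genes differed in each knockdown. With sh78, 10 of the 36 tested genes passed the test: SLC2A1, SLC16A1, PFKL, PFKP, ALDOC, GAPDH, LDHA, BNIP3 and BNIP3L fell and GPI rose. Across all tested genes 4.41% were called in that comparison, 2.56% lower and 1.85% higher. With sh76 only GPI (higher) and SLC16A1 (lower) passed, 2 of 36, where 3.58% of all genes were called, 1.43% higher and 2.16% lower. These were the 2 listed genes called with the same sign by both hairpins, as were 224 of all 17023. Both comparisons use the same scramble libraries, so a likeness between them is not independent.

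In sh78 the median log2 fold change of the listed genes was -0.19, and 30 of 36 were below 0, where the median of all genes was 0.01 and 48.7% were below 0. In sh76 the median was 0.01, with 15 of 36 below 0 against 48.6% of all genes. Groups did not overlap for 18 genes lower and 3 higher in sh78, where 11.2% and 10.2% of all genes were so placed. In sh76 4 genes were lower and 5 higher without overlap, where 11.7% and 10.8% of all genes were.

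The direct comparison of sh78 with sh76 called 4 listed genes, all lower in sh78: PFKP, LDHA, HIF1A and BNIP3L. The background in that comparison was 3.7% of all genes, 1.72% lower. Its median over the listed genes was -0.21, with 29 of 36 below 0. It shares the sh78 libraries with the comparison above. The fold changes of all 36 genes are drawn by role.

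**Figure D1:**
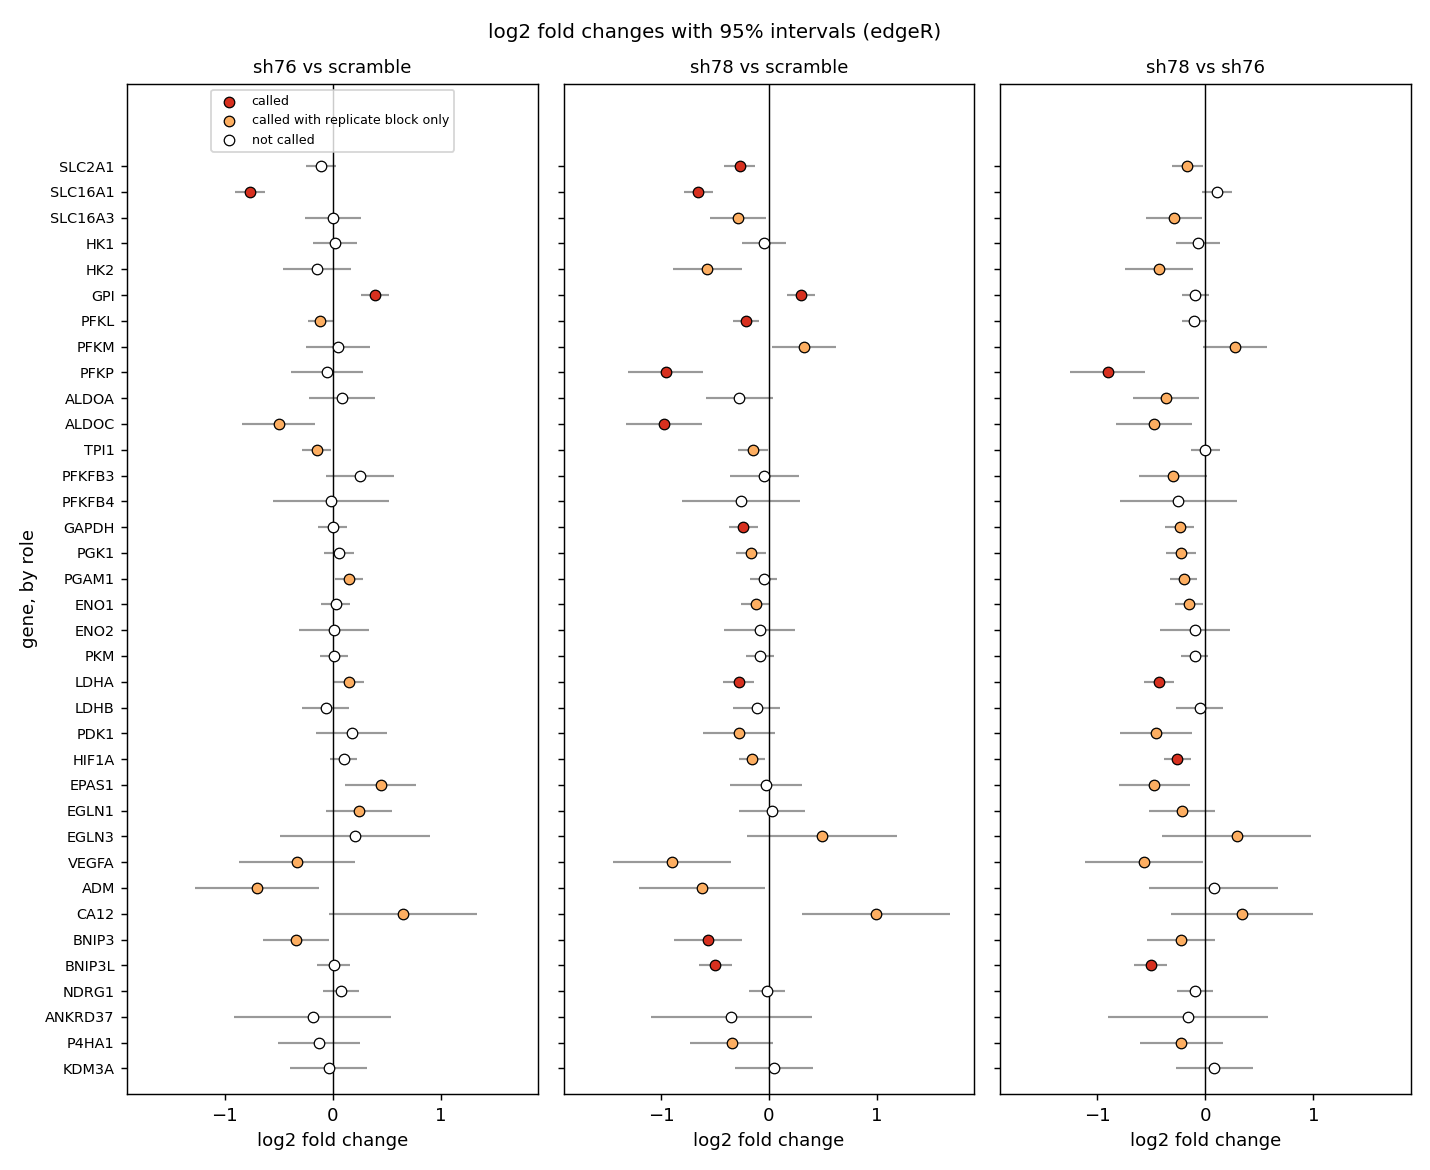
log2 fold changes (horizontal axis) of the 36 tested genes, ordered by role, with 95% intervals from edgeR, for each comparison. Red points were called at an adjusted p under 0.05, orange points were called with the replicate number as a block but not without it, and white points in neither of those fits. In sh78 against scramble 30 of 36 points lie left of 0.

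Replicates with the same number in different groups deviated together, and a fit with that number as a block called more genes in all comparisons. Of the listed genes it called 23 in sh78 (19 lower, 4 higher), where it called 19.9% of all genes, 10.1% lower and 9.79% higher. It called 13 in sh76 (7 lower, 6 higher), where it called 20.4% of all genes, 10.7% lower and 9.63% higher, and 23 between the hairpins (20 lower in sh78, 3 higher), where it called 18.3%, 8.62% lower and 9.69% higher. The number of calls in sh78 without the block also depended on single libraries. It was 6 without scramble replicate 1, sh76 replicate 2 or sh78 replicate 1, and 5 without sh78 replicate 2 or replicate 3. In the same fits all genes called in sh78 fell from 750 to 682, 565, 531, 469 and 453. Between the hairpins 8 listed genes were called without scramble replicate 1, where all genes called rose from 629 to 780.

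Among the transporters, SLC16A1 differed most. It encodes MCT1, which carries lactate and pyruvate across the plasma membrane. Its level was 39.4, 41.3 and 40.6 FPKM in scramble, 23.4, 25.03 and 22.8 in sh76, and 24.9, 27.6 and 24.6 in sh78. Every hairpin library was below every scramble library. SLC16A1 fell by 0.76 on the log2 scale in sh76 (SE 0.0646, edgeR adjusted p = 5.04e-05) and by 0.65 in sh78 (SE 0.0646, adjusted p = 9.11e-05), and it was called in all alternatives and all fits without 1 library. The hairpins differed by 0.11 (95% interval -0.03 to 0.25, adjusted p = 0.449).

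SLC16A3 encodes MCT4, the transporter linked to lactate export. Its mean was 6.36 ± 0.929 FPKM in scramble, 6.34 ± 0.765 in sh76 and 5.21 ± 0.592 in sh78 (SD, n = 3), and the groups overlapped. It was not called in either comparison with scramble (edgeR adjusted p = 0.997 and 0.228), although in sh78 it was called with the replicate block (log2 fold change -0.28, adjusted p = 0.000259) and without a low-count filter. Of the summed FPKM of SLC16A1 and SLC16A3, SLC16A1 made up 86.4% ± 1.53 in scramble, 78.9% ± 2.18 in sh76 and 83.1% ± 1.83 in sh78 (SD, n = 3).

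SLC2A1 encodes GLUT1, the common glucose importer. It stood at 35.0, 31.1 and 34.1 FPKM in scramble, 32.1, 30.2 and 30.3 in sh76, and 29.05, 26.6 and 27.2 in sh78. The sh78 libraries were all below the scramble libraries, and sh76 overlapped with scramble. SLC2A1 fell by 0.27 in sh78 (SE 0.0652, edgeR adjusted p = 0.0294), a call lost in 5 of 9 fits without 1 library (scramble replicate 1 or 3, sh76 replicate 2, sh78 replicate 2 or 3). SLC2A3, the glucose importer GLUT3, had counts of 1, 0 and 1 in scramble, 0, 11 and 0 in sh76, and 0 in every sh78 library. A count of 0 allows up to 3 counts by counting error alone. The 11 counts were in sh76 replicate 2, which also had the most counts of COL1A2 and COL3A1. A link was not tested.

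**Figure D2:**
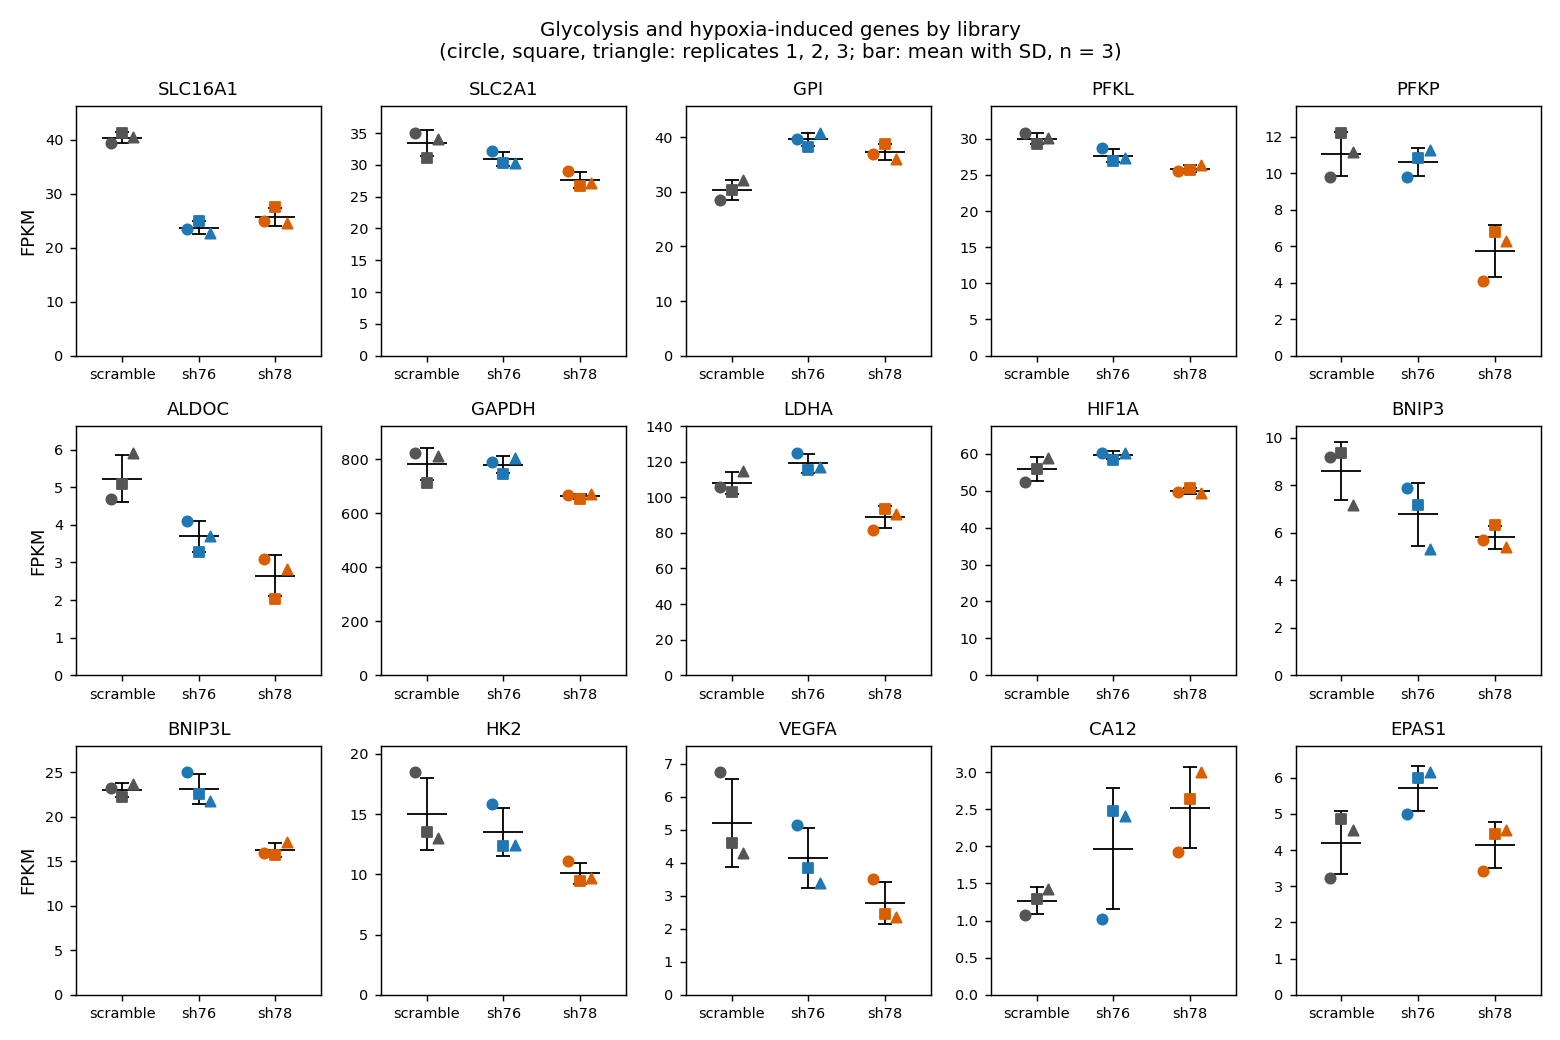
FPKM (vertical axis, each from 0) of 15 listed genes in scramble, sh76 and sh78. Circles, squares and triangles are replicates 1, 2 and 3, and bars give the mean with the SD (n = 3). SLC16A1 lies between 22.8 and 27.6 in the hairpin libraries and between 39.4 and 41.3 in scramble.

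GPI rose with both hairpins. It encodes glucose-6-phosphate isomerase, which makes fructose-6-phosphate. Its level was 28.6, 30.3 and 32.1 FPKM in scramble, 39.8, 38.3 and 40.8 in sh76, and 37.0, 38.9 and 36.0 in sh78. All 6 hairpin libraries were above all scramble libraries. GPI rose by 0.39 in sh76 (SE 0.0596, edgeR adjusted p = 0.00267) and by 0.30 in sh78 (SE 0.0596, adjusted p = 0.00997), and the sh78 call was lost without sh78 replicate 2.

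Hexokinase traps glucose in the cell, and HK2 is the HIF-responsive form. HK2 was 18.5, 13.5 and 13.0 FPKM in scramble, 15.9, 12.4 and 12.4 in sh76, and 11.1, 9.41 and 9.73 in sh78. The sh78 libraries were below all others, and replicate 1 was the highest in each group. Its log2 fold change in sh78 was -0.57 (SE 0.144, edgeR adjusted p = 0.0521), which missed the threshold, and it was called with the replicate block (-0.56, adjusted p = 1e-10), with DESeq2, without a low-count filter, and without scramble replicate 3 or sh76 replicate 1. HK1, the broadly expressed form, was 16.4 ± 0.93 in scramble, 16.5 ± 1.45 in sh76 and 15.9 ± 2.15 FPKM in sh78 (SD, n = 3).

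Of the 3 phosphofructokinase genes, the platelet-type PFKP fell in sh78. PFKP was 9.77, 12.2 and 11.1 FPKM in scramble, 9.76, 10.8 and 11.3 in sh76, and 4.09, 6.78 and 6.28 in sh78. The sh78 libraries lay below all 6 others, and sh76 overlapped with scramble. PFKP fell by 0.95 in sh78 (SE 0.158, edgeR adjusted p = 0.00574) and was lower in sh78 than in sh76 (-0.90, SE 0.158, adjusted p = 0.00929), in every alternative and every fit without 1 library. In sh76 its log2 fold change was -0.05 (95% interval -0.38 to 0.28).

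The liver-type PFKL was 30.8, 29.2 and 30.1 FPKM in scramble, 28.7, 26.9 and 27.4 in sh76, and 25.6, 25.6 and 26.4 in sh78. Neither hairpin group overlapped with scramble. PFKL fell by 0.21 in sh78 (SE 0.0548, edgeR adjusted p = 0.0418), a call lost without a low-count filter and in 8 of 9 fits without 1 library, all but that without sh76 replicate 1. In sh76 its log2 fold change was -0.11 (adjusted p = 0.305), called with the replicate block (adjusted p = 0.0476). The muscle-type PFKM was 12.5 ± 1.59 FPKM in scramble, 12.9 ± 2.25 in sh76 and 15.6 ± 1.63 in sh78 (SD, n = 3). It was not called in sh78 (edgeR adjusted p = 0.235), but was called there with the block (log2 fold change 0.33, adjusted p = 1.41e-06) and without a low-count filter.

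By share of their summed FPKM, PFKP made up 20.6% ± 1.63 in scramble, 20.7% ± 0.62 in sh76 and 11.996% ± 2.31 in sh78, and PFKM 23.2% ± 2.14, 25.1% ± 3.45 and 33.1% ± 1.204 (SD, n = 3). For both genes every sh78 library lay outside the range of the other 6. PFKL held 56.2%, 54.2% and 54.9%. These shares carry no test of their own.

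**Figure D3:**
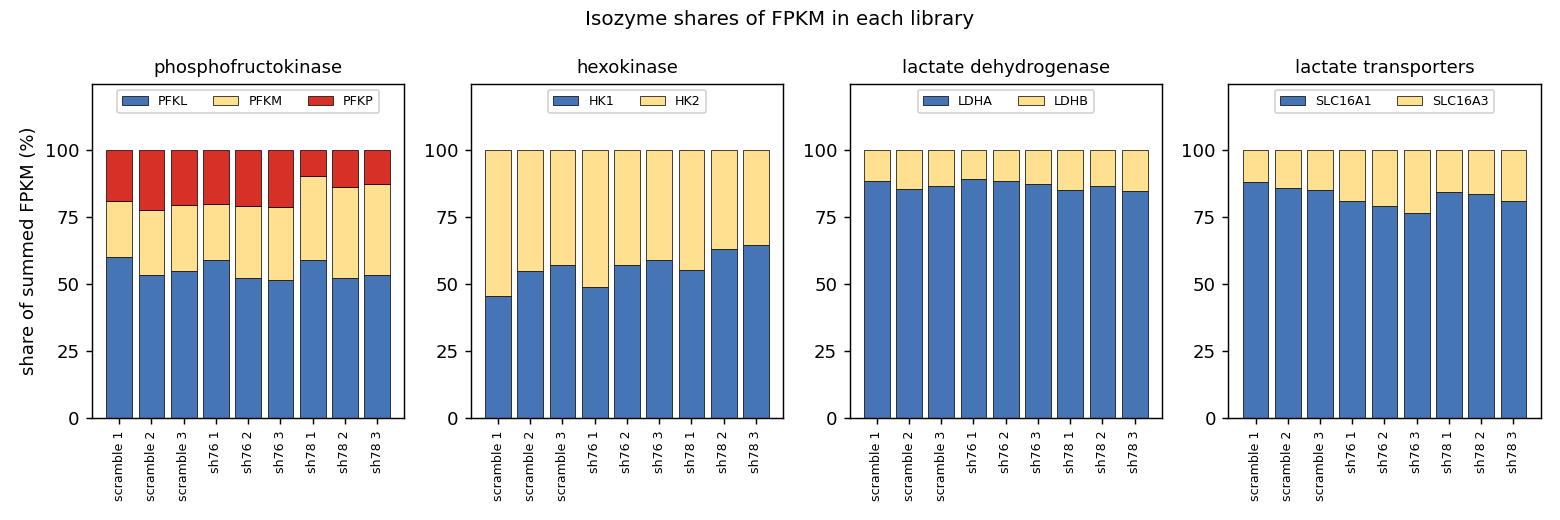
Share of summed FPKM (vertical axis, percent) of each gene within phosphofructokinase, hexokinase, lactate dehydrogenase and the lactate transporters, 1 bar per library. The PFKP share averages 11.996% in sh78 and 20.6% in scramble. LDHB shares exonic bases with another gene, so the lactate dehydrogenase shares are uncertain.

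Aldolase C and triose phosphate isomerase follow. ALDOC was 4.68, 5.09 and 5.92 FPKM in scramble, 4.11, 3.27 and 3.70 in sh76, and 3.08, 2.03 and 2.82 in sh78. The 3 groups were ordered without overlap, scramble highest and sh78 lowest. ALDOC fell by 0.97 in sh78 (SE 0.163, edgeR adjusted p = 0.00346), in every alternative and every fit without 1 library. In sh76 its log2 fold change was -0.50 (adjusted p = 0.105), called with the replicate block (adjusted p = 0.00113) and without a low-count filter. ALDOA stood at only 3.56 ± 0.182 FPKM in scramble (SD, n = 3). In GENCODE release 29, 53.5% of its exonic bases are shared with 2 other genes, the main one on the same strand, so its level is uncertain. TPI1 was called only with the block (log2 fold change -0.15 in both hairpin groups, edgeR adjusted p with the block 0.00721 in sh76 and 0.00824 in sh78).

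PFKFB3 and PFKFB4 make and break fructose-2,6-bisphosphate, the activator of phosphofructokinase. PFKFB3 was 5.88 ± 1.54 FPKM in scramble, 6.997 ± 0.532 in sh76 and 5.69 ± 0.335 in sh78, and PFKFB4 2.81 ± 0.961, 2.77 ± 0.58 and 2.32 ± 0.508 (SD, n = 3). Neither was called against scramble, with or without the block, although PFKFB3 was called in sh76 without scramble replicate 1.

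Of the 6 enzymes further down the pathway, 1 passed the test in sh78, where 4.41% of all genes did. GAPDH, which oxidises glyceraldehyde-3-phosphate, had the highest FPKM of the listed genes. It was 824, 712 and 809.9 FPKM in scramble, 790.6, 744 and 804 in sh76, and 667, 653 and 669 in sh78. The sh78 libraries were below all others. GAPDH fell by 0.24 in sh78 (SE 0.0628, edgeR adjusted p = 0.0486). That call was lost with RLE scaling, with limma on FPKM at both pseudocounts, and in 8 of 9 fits without 1 library, all but that without scramble replicate 2. ENO1 and PKM were next in FPKM, and above GAPDH in counts not scaled by gene length. They averaged 685 ± 41.1 and 391 ± 15.1 FPKM in scramble and 628 ± 28.6 and 368 ± 8.61 in sh78 (SD, n = 3), and neither was called without the block. With it ENO1 was called in sh78 (log2 fold change -0.12, edgeR adjusted p = 0.0213), as was PGK1 (-0.17, adjusted p = 0.00253), and PGAM1 was called as higher in sh76 (0.15, adjusted p = 0.00893). ENO2 had a log2 fold change of -0.08 in sh78.

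Summed over 17 glycolytic enzyme and lactate dehydrogenase genes, the level was 2642, 2436 and 2674 FPKM in scramble, 2663, 2502 and 2664 in sh76, and 2266, 2361 and 2327 in sh78. All sh78 libraries were below all others. GAPDH, ENO1 and PKM made up 71.9% of that sum in scramble and 71.6% in sh78. The sum as counted is thus mostly those 3 genes. It includes ALDOA, whose level is uncertain, and LDHB, which shares 33.4% of its exonic bases with a gene on the same strand. The sum and the shares are uncertain to that extent.

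At the pyruvate branch LDHA separated the hairpins. LDHA encodes the lactate dehydrogenase subunit of glycolytic tissues. It was 106, 103 and 115 FPKM in scramble, 125.2, 115 and 117 in sh76, and 81.8, 93.7 and 90.9 in sh78. The sh76 libraries were above and the sh78 libraries below scramble. LDHA fell by 0.28 in sh78 (SE 0.0659, edgeR adjusted p = 0.0273), a call lost with limma on FPKM and without scramble replicate 3, sh78 replicate 1 or sh78 replicate 3. In sh76 its log2 fold change was 0.15 (adjusted p = 0.257), called with the replicate block (adjusted p = 0.0246). The hairpins differed by -0.43 (SE 0.0659, adjusted p = 0.00256), in every alternative and every fit without 1 library. LDHB was 16.2 ± 2.19, 15.4 ± 1.05 and 14.95 ± 1.16 FPKM in scramble, sh76 and sh78 (SD, n = 3). In the annotation 33.4% of its exonic bases are shared with AC010197.2 on the same strand, so its level is uncertain. PDK1, a kinase of pyruvate dehydrogenase, was not called (log2 fold change -0.28 in sh78, edgeR adjusted p = 0.404), except with the block (adjusted p = 0.0373).

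The HIF alpha subunits came next. HIF1A was 52.4, 56.0 and 59.0 FPKM in scramble, 60.2, 58.3 and 60.4 in sh76, and 49.7, 50.9 and 49.5 in sh78. The sh78 libraries were the lowest. HIF1A was not called in sh76 (log2 fold change 0.10, edgeR adjusted p = 0.385) or in sh78 (-0.16, adjusted p = 0.156), except with the block in sh78 (adjusted p = 0.00656). It was lower in sh78 than in sh76 (-0.26, SE 0.057, adjusted p = 0.0221), a call lost without any 1 of the 6 hairpin libraries. EPAS1, which encodes HIF-2 alpha, was 4.21 ± 0.865, 5.71 ± 0.625 and 4.14 ± 0.629 FPKM in scramble, sh76 and sh78 (SD, n = 3). The sh76 log2 fold change was 0.45 (edgeR adjusted p = 0.14, and 3.22e-06 with the block), and it was also called there without a low-count filter. HIF activity is set largely at the protein level, which was not measured here. The hydroxylases EGLN1 and EGLN3 were called only with the block, EGLN1 as higher in sh76 (log2 fold change 0.25, edgeR adjusted p = 0.002) and EGLN3 as higher in sh78 (0.47, adjusted p = 2.88e-05).

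Among secreted and surface HIF targets edgeR called 0 of the 3 tested with all libraries, the filter and no block. Of all genes 3.58% were called in sh76 and 4.41% in sh78, so a count of 0 among 3 genes says little. In sh78 all 3 had an unadjusted edgeR p under 0.05. DESeq2 called VEGFA and CA12 in sh78. CA12 was also called in sh78 without a low-count filter, and in both hairpin groups without sh76 replicate 1. VEGFA, the vascular growth factor, was 6.74, 4.58 and 4.28 FPKM in scramble, 5.14, 3.85 and 3.39 in sh76, and 3.51, 2.46 and 2.37 in sh78. Replicate 1 was the highest in every group, and the sh78 libraries were all below scramble. Its log2 fold change was -0.90 in sh78 (SE 0.238, edgeR adjusted p = 0.0848, and 5.01e-16 with the block) and -0.33 in sh76 (adjusted p = 0.53, and 1.92e-05 with the block). Within same-numbered pairs the sh78 ratios were -0.94, -0.91 and -0.84 on the log2 scale. CA12, a surface carbonic anhydrase, was 1.27 ± 0.18 FPKM in scramble, 1.97 ± 0.816 in sh76 and 2.52 ± 0.545 in sh78 (SD, n = 3). The sh78 log2 fold change was 0.99 (edgeR adjusted p = 0.119, and 3.14e-06 with the block), and in sh76 it was 0.65 (adjusted p = 0.311, and 0.00137 with the block). ADM, the vasodilator adrenomedullin, had values of -0.70 in sh76 and -0.62 in sh78 (edgeR adjusted p = 0.185 and 0.252, and 0.00721 and 0.0163 with the block).

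CA9, a classical marker of HIF activity, was near the detection limit. Its counts were 7, 3 and 7 in scramble, 5, 7 and 15 in sh76, and 10, 3 and 3 in sh78. The groups overlapped, and it was not tested. In the annotation 38.5% of its exonic bases overlap ARHGEF39 on the opposite strand, which these libraries cannot separate.

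Of the intracellular targets, BNIP3 and BNIP3L mark mitochondria for removal by autophagy. BNIP3L was 23.2, 22.2 and 23.7 FPKM in scramble, 24.98, 22.5 and 21.8 in sh76, and 16.0, 15.7 and 17.2 in sh78. The sh78 libraries lay below all 6 others. BNIP3L fell by 0.50 in sh78 (SE 0.0717, edgeR adjusted p = 0.00126) and was lower in sh78 than in sh76 (-0.51, adjusted p = 0.00131), in every alternative and every fit without 1 library. In sh76 its log2 fold change was 0.01 (95% interval -0.14 to 0.16).

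BNIP3 was 9.21, 9.37 and 7.18 FPKM in scramble, 7.88, 7.15 and 5.30 in sh76, and 5.70, 6.33 and 5.40 in sh78. The sh78 libraries were below scramble, and sh76 overlapped with both. BNIP3 fell by 0.56 in sh78 (SE 0.144, edgeR adjusted p = 0.0464), a call lost with limma on FPKM and in 6 of 9 fits without 1 library (scramble replicate 1 or 2, sh76 replicate 2, any sh78 replicate). In sh76 it was -0.34 (adjusted p = 0.237, and 0.000287 with the block), also called without a low-count filter. NDRG1, a stress-responsive gene, was 41.9 ± 2.14, 44.1 ± 4.04 and 41.4 ± 3.46 FPKM in scramble, sh76 and sh78 (SD, n = 3). ANKRD37, P4HA1 and KDM3A had log2 fold changes of -0.35, -0.35 and 0.05 in sh78. Of these P4HA1 was called with the block (edgeR adjusted p = 0.000207) and without a low-count filter. In the annotation 35.2% of the exonic bases of ANKRD37 overlap UFSP2 on the opposite strand, which these libraries cannot separate.

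Same-numbered libraries were also compared gene by gene. In sh78, 20 of 36 genes were below scramble in all 3 pairs and 4 above, where 23.0% and 24.5% of all genes were. In sh76 both numbers were 10, where 25.3% and 25.7% of all genes were. SLC2A1, HK2, PFKFB4, PGK1, PDK1, VEGFA, ADM, P4HA1 and KDM3A, 9 genes in all, were highest in replicate 1 in all 3 groups, as were 13.6% of all genes. SLC16A3, HK1, PFKM, PFKP, EPAS1, CA12 and NDRG1, 7 genes, were lowest in replicate 1 in all 3 groups, as were 15% of all genes. For replicate 2, 1 gene was highest and 4 lowest, where 7.02% and 7.58% of all genes were. For replicate 3 the numbers were 4 and 5, where 10.7% and 10.5% of all genes were. What set the replicates apart is not given in the labels, and its part in these genes was not tested.

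**Figure D4:**
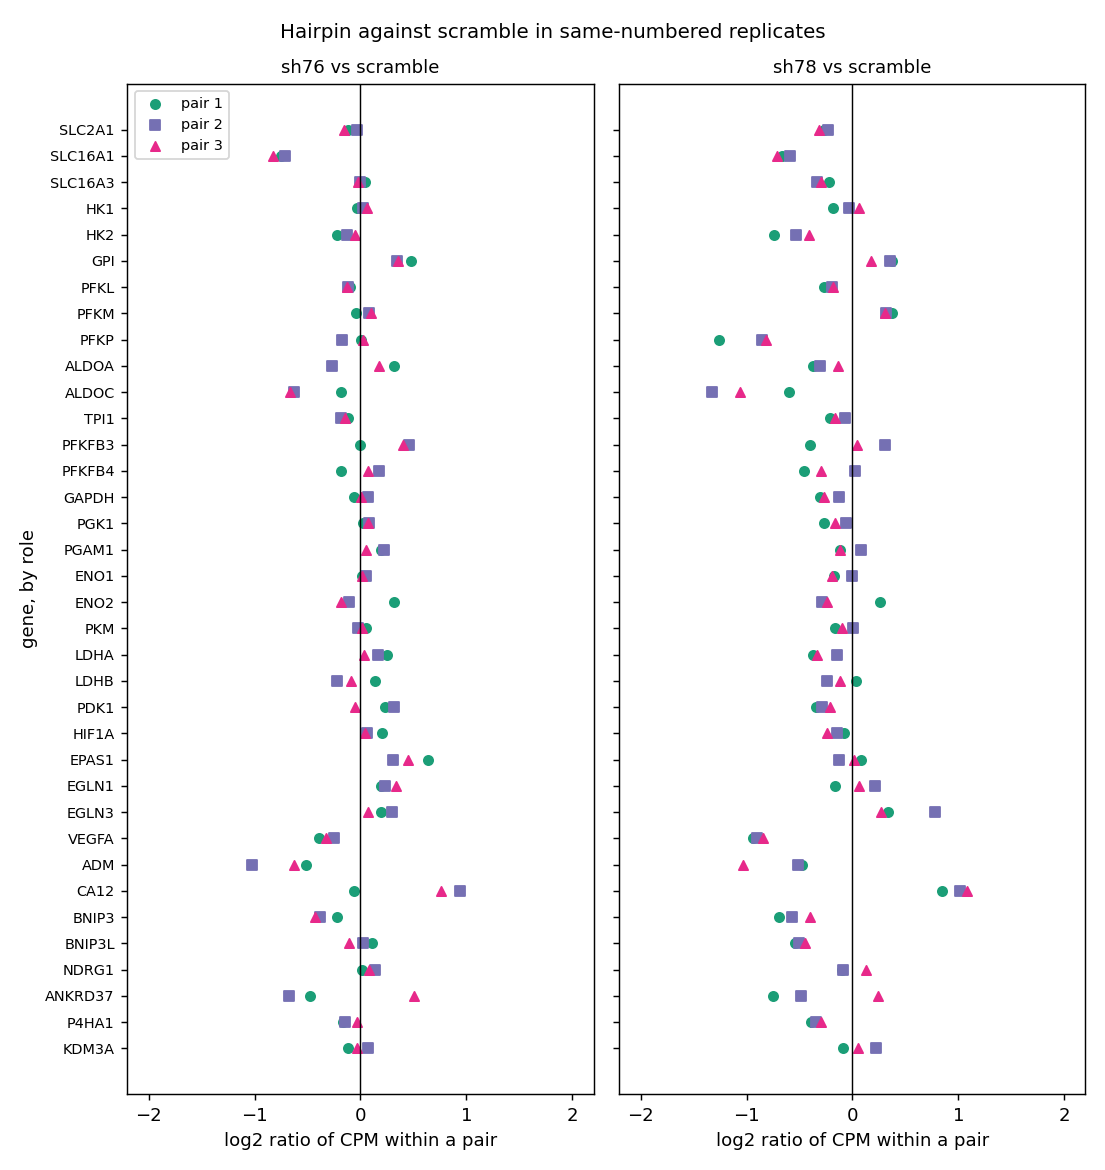
log2 ratio of CPM (horizontal axis) of each hairpin library to the scramble library of the same number, for the 36 tested genes by role, with 1 marker per pair. In sh78 20 genes lie left of 0 in all 3 pairs, and VEGFA lies between -0.94 and -0.84.

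Other genes of these pathways came from a second list of 115 names, of which 114 were in the table and 96 were tested. This list too was chosen with earlier results of these data known. With sh76, 7 were called, 1 higher and 6 lower, and with sh78 also 7, 1 higher and 6 lower. That was 7.29% of the list in each case, against 3.58% and 4.41% of all genes. Between the hairpins 6 were called (6.25%, against 3.7%), 4 higher and 2 lower in sh78. The median log2 fold change was -0.05 in sh76, -0.09 in sh78 and -0.03 between them, where all genes had 0.01, 0.01 and 0.00. The sh76 count fell to 1 without sh76 replicate 2, 2 without sh76 replicate 3, 3 without scramble replicate 2 and 4 without scramble replicate 3. In the same fits all genes called in sh76 fell from 610 to 237, 339, 313 and 333. The count between the hairpins fell to 1 without sh76 replicate 2 or sh78 replicate 2, 2 without sh78 replicate 1 and 3 without sh78 replicate 3. In the same fits all genes called between the hairpins fell from 629 to 273, 375, 344 and 351.

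Both hairpins moved KDR, PGLS, STC2 and DDIT3 in the same direction. KDR, a VEGF receptor, rose from 1.42 ± 0.098 FPKM to 2.07 ± 0.248 in sh76 and 2.85 ± 0.372 in sh78 (log2 fold changes 0.55 and 1.00, edgeR adjusted p = 0.0396 and 0.00087, SD over n = 3). STC2, the secreted glycoprotein stanniocalcin 2, fell by 0.67 in sh76 and 0.80 in sh78 (edgeR adjusted p = 0.0162 and 0.00494). PGLS, an enzyme of the pentose phosphate pathway, fell by 0.43 and 0.42 (edgeR adjusted p = 0.014 and 0.0121). DDIT3, a stress-induced transcription factor, fell by 0.57 and 0.98 (edgeR adjusted p = 0.0477 and 0.00211), but 39.6% of its exonic bases overlap other genes, MARS on the opposite strand among them, so its counts are uncertain.

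The others were called with a single hairpin or, for ERO1A, IGFBP3 and SLC6A8, only between the hairpins. In sh78, AK4, a mitochondrial adenylate kinase, fell by 0.51 (edgeR adjusted p = 0.00143) and PGM1, which links glycogen to glycolysis, by 0.45 (adjusted p = 0.0112). In sh76, ARNT2, a partner of HIF alpha subunits, fell by 1.64 (edgeR adjusted p = 0.00545) and HKDC1, a hexokinase-like gene, by 0.78 (adjusted p = 0.0123). ARNT2 and HKDC1 were higher in sh78 than in sh76 by 1.23 and 0.71, so for these genes the difference between hairpins was itself called. ERO1A, an oxidase of protein folding, was lower in sh78 than in sh76 (-0.62, edgeR adjusted p = 0.00476), as was the collagen-modifying enzyme PLOD2 (-0.37, adjusted p = 0.0477). IGFBP3, which binds insulin-like growth factors, and the creatine transporter SLC6A8 were higher in sh78 by 0.35 and 0.33 (edgeR adjusted p = 0.0162 and 0.0335). Of the second-list calls named here, ARNT2 in sh76, STC2, KDR, DDIT3, AK4 and PGM1 in sh78, and ERO1A between the hairpins were called in every alternative and every fit without 1 library. The others were each lost without sh76 replicate 2 or without sh78 replicate 2, and some without other libraries too.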

How the data were processed

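RNA from 9 OVCAR3 libraries was made into non-directional poly-A libraries, per the labels' protocols. Per the submitters' processing notes, HISAT2 2.0.5, featureCounts 1.5.0-p3 and hg38 were used. The authors deposited raw counts per gene and FPKM values. GENCODE release 29 held each of the 58735 gene identifiers, and 0 columns of sample values were left out. Counts of overlapping genes and near-identical copies cannot be told apart by strand.

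Differences were tested on the counts by edgeR 4.0.16 (R 4.3.3), using filterByExpr with minimum count 10 and total 15, TMM scaling, robust quasi-likelihood F tests, 1 coefficient per group, Benjamini-Hochberg over 17023 genes, called at 0.05. The script was tested on simulated data. Alternatives were RLE scaling, DESeq2 1.42.0, no filter, a replicate block, limma 3.58.1 on log2(FPKM + 1) or + 0.1, and leaving out each library. Intervals are 95%.

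The numbers 1 to 3 come from the sample titles. Deviations from group means correlated at 0.142 to 0.391 in 9 same-numbered pairs of libraries and -0.31 to 0.0639 in 18 others. The numbers were therefore taken to pair libraries. The main fit does not use this pairing, and only the replicate block does. The block left 4 residual degrees of freedom, against 6 without it, so very small p-values from it rest on few libraries. Replicates of a group differed beyond counting noise (chi-square per degree of freedom 5.199 to 11.73).

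The members, the second list and the marker lists were chosen with earlier results of these data known. Named were GPX3, every listed gene, and up to 6 called genes of the second list per comparison with the largest absolute change. Promoter sequences came from RefSeq on GRCh38.p14.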

Additional observations from a re-analysis of the deposited data

Results flagged for a closer look

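The hairpins differed in a direct edgeR test for 10 genes of both lists, given as the log2 difference of sh78 minus sh76. PFKP (-0.90), LDHA (-0.43), HIF1A (-0.26) and BNIP3L (-0.51) were lower in sh78, as were PLOD2 (-0.37) and ERO1A (-0.62). HKDC1 (0.71), ARNT2 (1.23), IGFBP3 (0.35) and SLC6A8 (0.33) were higher in sh78. GPX3 was also lower in sh78 than in sh76, and the part of that difference in these genes was not tested. With 3 libraries in a group no single library was tested as standing apart.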

How the results depend on the processing

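No listed gene that was called reversed its sign in the alternatives run. With the replicate block the listed genes called were 13 in sh76, 23 in sh78 and 23 between the hairpins, the second list gave 29, 28 and 33, and all genes gave 3467, 3388 and 3117 (610, 750 and 629 without it). The block kept every listed gene called without it. Without a low-count filter, 5 listed genes were called in sh76 and 11 between the hairpins, 15, 13 and 13 of the second list, and 1149, 1212 and 1125 of all genes. With limma on log2(FPKM + 1) the second list gave 2 between the hairpins, and with 0.1 it gave 3 there and 4 in sh76. The cause was not tested.

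Leaving out 1 library at a time, listed genes called ran from 2 to 3 in sh76, 5 to 11 in sh78 and 3 to 8 between the hairpins. The second list ran from 1 to 7, 5 to 9 and 1 to 6, and all genes from 237 to 655, 418 to 810 and 273 to 780. The all-gene counts were lowest without sh76 replicate 2 in sh76 and between the hairpins, and without scramble replicate 2 in sh78. Shares of isozymes depend on scaling by gene length. Genes with few counts, such as CA9 and SLC2A3, were too shallow to compare, and 3 libraries a group limit the rest.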
